A study of Mus musculus with 6 samples.

Results

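The reticulocalbins, their relatives and the proteins that modify collagen in the endoplasmic reticulum (ER) were examined as a set of 10 mouse genes, Rcn1, Rcn2, Rcn3, Calu, Sdf4, P4ha1, P4ha2, Plod1, Plod2 and Serpinh1, out of 34745 genes counted. They were taken by gene name from each count file. They were chosen by their CPM values in the contrast of the groups, which were already known, so their counts, levels and fold changes are given as a description with no test.

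RNA was sequenced from 889 cells, a murine lung cancer line labelled C57BL/6 and lung, to learn which genes respond to loss of kiaa1522. In 3 libraries, labelled sg-con, the cells expressed Cas9 with a control sgRNA, and in 3 libraries, labelled sg-kiaa1522, they expressed Cas9 with an sgRNA against kiaa1522. No drug was named for either group, and the model is a single tumor cell line, so that both groups share its tumor genotype and its growth in culture. Which of the kiaa1522 sgRNAs the sequenced cells carried, and whether replicates came from separate cultures, is not given in the sources used here. The p-values below therefore measure only the spread between these libraries, which may be technical.

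Reticulocalbins, calumenin (Calu) and Sdf4 form the CREC family, proteins with several EF-hand calcium-binding sites that reside in the lumen of the secretory pathway. Collagen chains are hydroxylated in the same lumen before they fold. Prolyl 4-hydroxylases, whose alpha subunits are encoded by the P4ha genes, stabilize the triple helix, lysyl hydroxylases (Plod genes) prepare the lysines used for cross-links, and HSP47, encoded by Serpinh1, is the chaperone that binds folded procollagen. In lung tumors these enzymes are known for their part in stiff, collagen-rich matrix, P4ha1, P4ha2 and Plod2 are known targets of hypoxia-inducible factors, and Rcn3 is needed for lung maturation around birth in mice.

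The start regions of the 4 members with the largest positive differences between the groups are shown to place them in the genome and to mark motifs known in hypoxia-responsive and ER-chaperone promoters. Of the 10 members, 8 matched an entry of RefSeq promoters on GRCm38.p6, and Rcn1 and Plod2 did not. Each line gives the 250 bases before the RefSeq start, 5′ to 3′ on the strand of the gene. They span chr7:45092214-45092463 on the minus strand for Rcn3, chr6:29347856-29348105 on the plus strand for Calu, chr11:54100674-54100923 on the plus strand for P4ha2 and chr7:99353240-99353489 on the minus strand for Serpinh1. Capitals mark ACGTG, the core of the hypoxia response element, and CCAAT, the box found in many promoters, on either strand, so that CACGT and ATTGG are marked too.
Rcn3: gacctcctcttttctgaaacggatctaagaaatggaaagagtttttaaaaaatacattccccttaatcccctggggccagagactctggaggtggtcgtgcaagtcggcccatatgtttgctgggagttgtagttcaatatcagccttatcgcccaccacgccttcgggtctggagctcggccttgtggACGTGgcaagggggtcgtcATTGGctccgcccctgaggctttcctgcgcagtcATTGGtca
Calu: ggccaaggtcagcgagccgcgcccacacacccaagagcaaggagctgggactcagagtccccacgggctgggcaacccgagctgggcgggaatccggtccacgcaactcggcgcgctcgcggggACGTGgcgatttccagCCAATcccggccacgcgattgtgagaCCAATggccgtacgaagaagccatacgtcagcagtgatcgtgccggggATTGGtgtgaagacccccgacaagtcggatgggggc
P4ha2: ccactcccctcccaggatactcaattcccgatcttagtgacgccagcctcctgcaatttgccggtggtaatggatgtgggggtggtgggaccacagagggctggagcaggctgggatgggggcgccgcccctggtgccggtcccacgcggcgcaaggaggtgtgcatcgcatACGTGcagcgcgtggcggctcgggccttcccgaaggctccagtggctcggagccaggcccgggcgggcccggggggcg
Serpinh1: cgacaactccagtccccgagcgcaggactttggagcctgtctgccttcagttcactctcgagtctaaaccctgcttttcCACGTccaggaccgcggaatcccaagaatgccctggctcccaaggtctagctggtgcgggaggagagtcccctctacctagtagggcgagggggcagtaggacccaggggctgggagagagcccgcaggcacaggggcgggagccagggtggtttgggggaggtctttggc

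ACGTG stood once in each of these 4 windows, and CCAAT stood at 2 places in that of Rcn3, at 3 in that of Calu and nowhere in those of P4ha2 and Serpinh1. No marked matches overlapped. Among the 8 members with a window, 6 held ACGTG and 4 held CCAAT in a window, and Sdf4 alone had more than 1 window, with 4. Of all 32851 windows of this length, 16.6% held ACGTG and 33.8% held CCAAT. The full ER stress element, a CCAAT box and CCACG set 9 bases apart, was in 37 of all windows and in 0 of the members' windows. A match is a description of letters, not of a bound site. The ends of the Calu and Rcn3 windows run into first exons annotated by GENCODE M21, and the P4ha2 window lies inside its gene model but outside its exons.

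The libraries held between 12220001 and 18609376 counts. Levels are given as CPM, a gene's counts scaled by the library's counts in tested genes and its TMM factor, with the mean ± SD of 3 libraries. After genes with 500 counts or fewer in total were left out, 10046 genes remained, and 8 of the 10 members were among them. Rcn1 had 0 counts and P4ha2 had 432, just below that limit, while Rcn3 had 890, above it. Rcn3 passed only through the libraries labelled sg-kiaa1522, since it had 11 counts in the others. The targeted gene, C77080 (ENSMUSG00000050390, chromosome 4, 129219578 to 129261404, minus strand), had 2214, 2404 and 2064 counts in the sg-con libraries and 2554, 3726 and 3667 in the libraries labelled sg-kiaa1522. Its level was thus higher where depletion was labelled, at 210 ± 6.38 against 127 ± 2.93 CPM (log2 fold change 0.73, SE 0.0569, adjusted p = 9.1e-05, from the quasi-likelihood test of edgeR, adjusted by Benjamini-Hochberg over all tested genes). Counts over the whole gene do not show whether the reading frame was cut, and every direction below is drawn between libraries by their labels.

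Markers fixed by list were read in the same libraries. Epithelial keratins were abundant, with Krt8 at means of 1280 CPM in the sg-con libraries and 968 CPM in those labelled sg-kiaa1522. Krt19 fell from 798 to 480 CPM (-0.73, adjusted p = 0.0012 by edgeR) and Cdh1, the gene of E-cadherin, from 56.4 to 20.6 CPM (-1.45, adjusted p = 5.1e-05 by edgeR). Nkx2-1, a lung epithelial factor, had 970, 1096 and 227 counts against 132, 174 and 671, so that replicate 3 of each group stood apart from the other two and the groups overlap, while Epcam was at 0 in every library and Cldn4 had at most 1 count. The summed level of the 8 epithelial markers ranged from 3870 to 4590 CPM in the sg-con libraries and from 3260 to 3510 in those labelled sg-kiaa1522. The 8 fibroblast markers summed to between 467 and 486 CPM against between 167 and 198, mostly Col1a2 at means of 424 and 154 CPM, with Thy1 at 0 and Dcn at no more than 2 counts. The 6 leukocyte markers summed to between 2.27 and 6.03 CPM against between 11.0 and 13.9, with Cd68 at a mean of 11.3 CPM in the latter and Adgre1 and Cd3e at 0, and the 4 endothelial markers stayed between 0.809 and 1.66 CPM in every library. The part of these markers in the results below was not tested. In such bulk libraries, fewer cells of a type and less RNA per cell cannot be told apart.

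Rcn3, a reticulocalbin of the ER lumen (ENSMUSG00000019539, chromosome 7, 45082913 to 45092221, minus strand), differed most between the groups. It had 4, 4 and 3 counts in the sg-con libraries and 253, 272 and 354 in the libraries labelled sg-kiaa1522. In CPM these are 0.230, 0.216 and 0.180 against 20.8, 14.8 and 20.9. The sg-con libraries lie close to the floor of 3 counts, which corresponds to between 0.162 and 0.247 CPM and covers counting error only, and each library labelled sg-kiaa1522 lies far above it. The mean was 0.208 ± 0.0256 CPM against 18.8 ± 3.47 CPM. The fitted log2 fold change was 6.44 (SE 0.255), and the ratio of the summed counts, scaled by library size, was 88.6, with an exact 95% interval of 49.3 to 178 that covers counting error only. Among the tested genes Rcn3 ranked 4 by the size of its positive fold change. That ranking leaves out genes below the filter, such as P4ha2, and Rcn3 passed the filter only through the libraries labelled sg-kiaa1522. The rank describes values by which Rcn3 was chosen and is no test.

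Calu encodes calumenin, the CREC gene with the highest RNA level per exon length in these cells (ENSMUSG00000029767, chromosome 6, 29348069 to 29377110, plus strand). Its levels were 463.6, 403.8 and 379.1 CPM in the sg-con libraries and 863.5, 981.4 and 730.9 CPM in the libraries labelled sg-kiaa1522. The lowest of the latter is well above the highest of the former. The means were 416 ± 43.5 and 859 ± 125 CPM, with a log2 fold change of 1.05 (SE 0.121). The position in the ranking of positive fold changes was 260, and the fold change lies just past the study's threshold of 1.

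The remaining CREC genes did not share that direction. Rcn2 (ENSMUSG00000032320, chromosome 9, 56041845 to 56061882, plus strand), a reticulocalbin found in the ER, was at 149.7, 133.2 and 126 CPM in the sg-con libraries and at 107.6, 116.7 and 113.9 CPM in those labelled sg-kiaa1522. The groups do not overlap, and the libraries labelled sg-kiaa1522 are the lower ones, with means of 136 ± 12.2 and 113 ± 4.67 CPM and a log2 fold change of -0.27 (SE 0.0795). Sdf4, also called Cab45, a calcium-binding protein of the Golgi lumen (ENSMUSG00000029076, chromosome 4, 155992872 to 156013610, plus strand), was at 128.7, 134.9 and 134.9 CPM against 125.2, 116.5 and 115.7 CPM. These groups do not overlap either, although the gap between the nearest libraries is small beside the means of 133 ± 3.60 and 119 ± 5.30 CPM. The log2 fold change of Sdf4 was -0.16 (SE 0.0613). In TPM by exon length, which scales the libraries without the TMM factor, its groups do overlap, at 55.4, 55.8 and 55.9 against 55.8, 51.4 and 52.6. In TPM by mean transcript length they do not, at 100, 101 and 101 against 97.5, 90.5 and 91.5.

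Rcn1, a reticulocalbin of the ER lumen (ENSMUSG00000005973, chromosome 2, 105386291 to 105399319, minus strand), had 0 counts in every library. A count of 0 allows up to 3 counts, the floor given above. None of its 3146 distinct stretches of 50 bases occurs in a transcript of another gene, so no other gene shares a read of that length with it. The genes around Rcn1 were looked at after this value was seen. Between Eif3m, a translation factor subunit with 2282 to 3561 counts a library, and Elp4, a subunit of the Elongator complex, 11 genes in order of their start were counted, Rcn1 among them. Of these 10 were at 0 in all 6 libraries, including the transcription factor genes Wt1 and Pax6 and the thioesterase gene Them7, and Gm13890 had 1 count in 1 sg-con library. The plot of counted genes around Rcn1 shows this stretch.

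**Figure D1:**
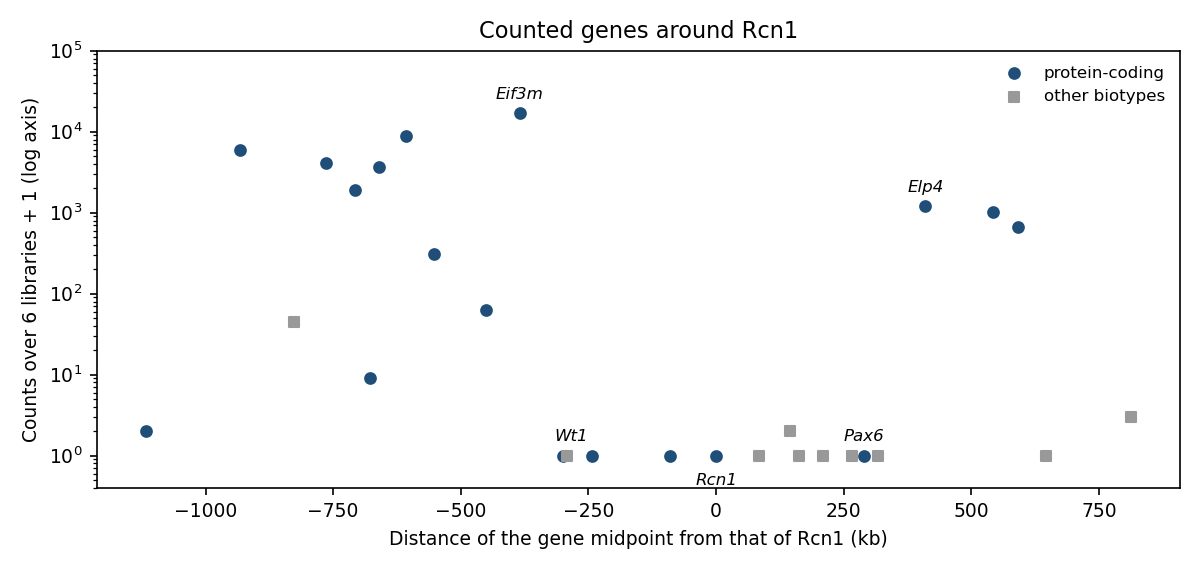
Counts summed over the 6 libraries plus 1 (log axis) for the 28 counted genes that lie at least in part within 1000 kb of the midpoint of Rcn1, against the distance of each gene's midpoint from that of Rcn1 in kb. Circles are protein-coding genes and squares other biotypes, and 12 of the 28 genes, Rcn1 among them, sit on the lowest line because they had 0 counts.

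Among the prolyl 4-hydroxylase subunits, P4ha1 and P4ha2 behaved differently. P4ha1, the most abundant alpha subunit here (ENSMUSG00000019916, chromosome 10, 59323296 to 59373304, plus strand), was at 147.9, 142.2 and 138.3 CPM in the sg-con libraries and at 118.6, 151.1 and 136.5 CPM in the libraries labelled sg-kiaa1522. The latter hold both the lowest and the highest of the 6 values, so the groups overlap. The means were 143 ± 4.86 and 135 ± 16.3 CPM and the log2 fold change was -0.08 (SE 0.0921).

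P4ha2, the second alpha subunit (ENSMUSG00000018906, chromosome 11, 54100095 to 54131665, plus strand), was a low gene with 20, 26 and 19 counts in the sg-con libraries. It had 115, 137 and 115 counts in the libraries labelled sg-kiaa1522. In CPM the levels were 1.15, 1.40 and 1.14 against 9.48, 7.47 and 6.77, and the groups lie far apart. The means of 1.23 ± 0.150 and 7.91 ± 1.40 CPM have a ratio of 6.43, or 2.68 on the log2 scale. This value was not fitted with the tested genes because P4ha2 did not pass the filter.

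Of the lysyl hydroxylases, Plod2 was the one with separate groups. Plod2, which hydroxylates lysines in the ends of collagen chains (ENSMUSG00000032374, chromosome 9, 92542223 to 92608428, plus strand), was at 85.6, 72.1 and 71.9 CPM in the sg-con libraries and at 94.9, 103.6 and 100.1 CPM in those labelled sg-kiaa1522. Replicate 1 of sg-con is the nearest to the other group but still below it. The means were 76.5 ± 7.83 and 99.5 ± 4.37 CPM, with a log2 fold change of 0.38 (SE 0.0871). Plod1, which acts on lysines of the helical part (ENSMUSG00000019055, chromosome 4, 147909753 to 147936767, minus strand), was at 34.7, 41.2 and 40.6 CPM against 41.9, 37.1 and 39.7 CPM. Its groups overlap, and its log2 fold change was 0.03 (SE 0.0972).

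Serpinh1, the gene of the collagen chaperone HSP47 (ENSMUSG00000070436, chromosome 7, 99345376 to 99353239, minus strand), was also separate between the groups. It was at 53.7, 59.8 and 62.6 CPM in the sg-con libraries and at 118.6, 109.5 and 122.3 CPM in the libraries labelled sg-kiaa1522. All of the latter exceed all of the former by a wide margin. The means were 58.7 ± 4.54 and 117 ± 6.59 CPM, with a log2 fold change of 0.99 (SE 0.0818), just short of the study's threshold of 1, and a rank of 300 among positive fold changes.

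**Figure D2:**
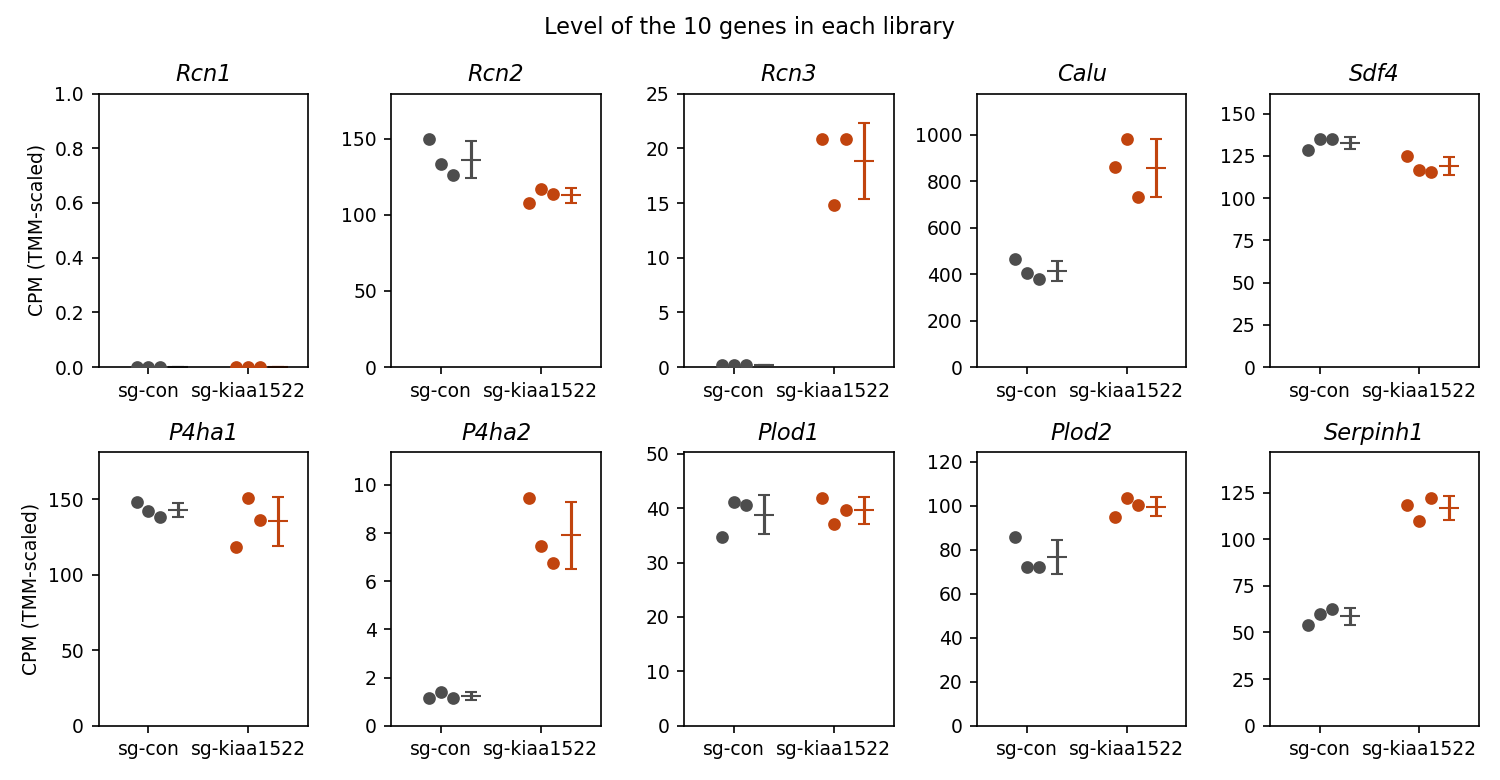
TMM-scaled CPM of each member in the 3 sg-con and the 3 sg-kiaa1522 libraries (points, in replicate order from left to right), with the mean and SD beside them and each axis starting at 0. The groups lie apart for Rcn3 (0.208 against 18.8 CPM), P4ha2, Calu and Serpinh1, overlap for P4ha1 and Plod1, and Rcn1 is at 0 throughout.

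The study's threshold, as its methods give it, asks for an adjusted p no higher than 0.05 and a log2 fold change of 1 or more in either direction. By it, 2 of the 8 tested members were called higher, Rcn3 and Calu, where 2.74% of all tested genes were, and 0 were called lower, where 4.34% of all tested genes were. Calu fell short of the threshold without replicate 3 of sg-con (0.98) and without replicate 2 of the libraries labelled sg-kiaa1522 (0.94), and in both cases Serpinh1 (1.04) passed it, so that the count stayed at 2 with another gene. By the adjusted p alone, 4 members were called higher (Rcn3, Calu, Serpinh1 and Plod2), against 26.3% of all tested genes, and 1 was called lower (Rcn2), also against 26.3%. The Rcn2 call was lost with the replicate block and without replicate 1 or 3 of the libraries labelled sg-kiaa1522. CPM values did not overlap in the higher direction for the same 4 members, against 30.6% of all tested genes. In the lower direction they did not overlap for Rcn2 and Sdf4, against 31.1%, though those of Sdf4 overlap in TPM by exon length. The median log2 fold change of the 8 tested members was 0.20, and that of all tested genes was -0.0067. Since this contrast chose the members, these counts describe them and nothing more is read from them.

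Levels were then compared between genes per exon length, as TPM, which divides counts by exon length before scaling each library to the same sum. TPM uses no TMM factor, so the ratio between the groups differs from that in CPM. P4ha1, for example, was at 89.1 TPM in the sg-con libraries and 90.0 TPM in those labelled sg-kiaa1522, but at 143 and 135 CPM. In the sg-con libraries, Calu stood first at 229 ± 29.1 TPM, followed by P4ha1 at 89.1 ± 4.93, Rcn2 at 73.8 ± 8.22, Serpinh1 at 61.6 ± 3.55 and Sdf4 at 55.7 ± 0.294 TPM. Plod2 at 36.5 ± 4.59, Plod1 at 14.7 ± 1.06, P4ha2 at 0.505 ± 0.0559 and Rcn3 at 0.312 ± 0.0434 TPM came after them. The ranges over the 3 libraries did not overlap between neighbours in this order. The order depends on the length used, since with the mean transcript length Sdf4 (101 TPM) and Rcn2 (94.4 TPM) stood above P4ha1 (61.4 TPM).

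In the libraries labelled sg-kiaa1522 the order began with Calu at 503 ± 66.0 and Serpinh1 at 131 ± 9.23 TPM, so that Serpinh1 stood above P4ha1 (90.0 ± 10.5 TPM) and Rcn2 (65.0 ± 2.77 TPM). Sdf4 at 53.3 ± 2.27 and Plod2 at 50.5 ± 2.19 TPM had overlapping ranges. Rcn3 at 30.1 ± 5.85 TPM stood above Plod1 at 16.0 ± 1.08 TPM, and P4ha2 was at 3.46 ± 0.593 TPM. The place of Rcn3 above Plod1 depends on the length used, since with the mean transcript length Rcn3 was at 31.5 ± 5.96, Plod1 at 32.5 ± 2.05 and P4ha2 at 9.30 ± 1.59 TPM in these libraries. Of all tested genes, 0.0998% had a lower mean TPM than Rcn3 in the sg-con libraries, and 55.2% did in the libraries labelled sg-kiaa1522. The first share depends on the filter, which left out genes with few counts and which Rcn3 passed only through the latter libraries. For Calu these shares were 95.4% and 98.2%, and for Serpinh1 they were 78.2% and 90.7%. With the mean transcript length they were 0.0798% and 47.3% for Rcn3, 96.4% and 98.6% for Calu, and 65.2% and 83.2% for Serpinh1.

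**Figure D3:**
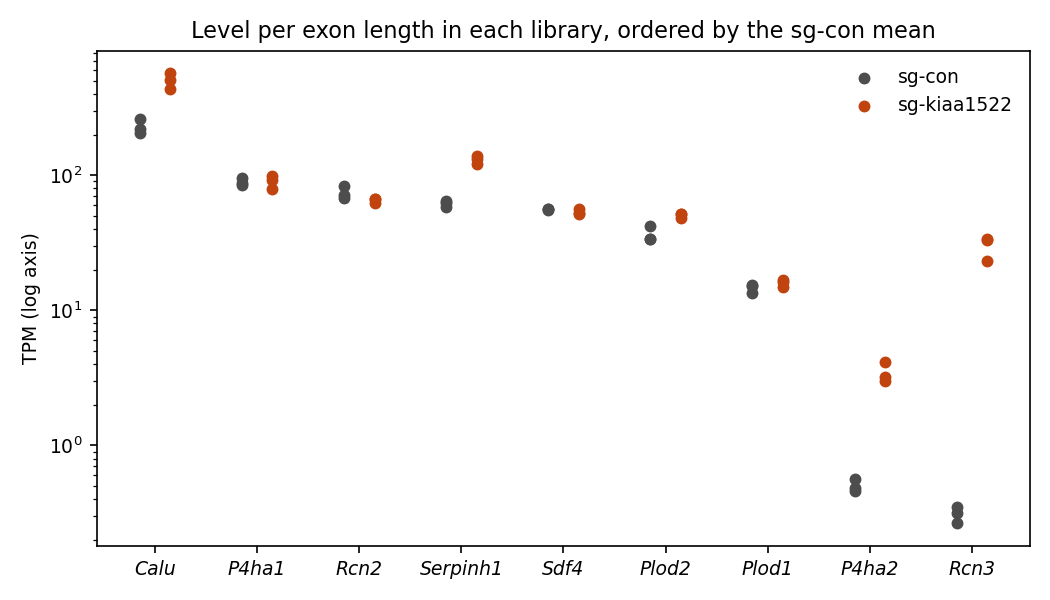
TPM per exon length (log axis) of the 9 members with counts in each library, ordered by the mean of the sg-con libraries, one point per library and one color per group. Rcn3 moves from the lowest place, at 0.312 TPM on average, to 30.1 TPM, above Plod1 and P4ha2 by exon length, though not above Plod1 by mean transcript length (31.5 against 32.5 TPM).

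Shares within a family were computed from the same TPM values. Calu made up 63.7 ± 1.46% of the summed CREC level in the sg-con libraries and 77.0 ± 3.05% in those labelled sg-kiaa1522. The share of Rcn2 was 20.6 ± 0.162% against 9.43%, 9.36% and 11.3% in the single libraries, that of Sdf4 15.6 ± 1.63% against 8.23 ± 0.877%, and that of Rcn3 0.0868 ± 0.00568% against 4.69 ± 1.26%. The summed level itself was 359 ± 37.1 against 651 ± 60.1 TPM.

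Prolyl 4-hydroxylase alpha subunits went the other way in sum, at 126 ± 6.10 TPM in the sg-con libraries against 104 ± 8.24 TPM. P4ha1 made up 70.7 ± 1.21% of it against 86.3 ± 3.62%, and P4ha2 0.402 ± 0.0556% against 3.37 ± 0.830%. P4ha3, the third alpha subunit and not a member, made up 28.9 ± 1.24% against 10.3 ± 2.79%. The share of P4ha2 depends on the length used, at 1.48 ± 0.205% against 14.9%, 10.5% and 10.5% in the single libraries with the mean transcript length, where P4ha3 was at 34.0 ± 1.38% against 11.7 ± 2.79%. For the lysyl hydroxylases the sum was 94.2 ± 1.23 against 109 ± 1.12 TPM, and the share of Plod2 was 38.7 ± 4.44% against 46.4 ± 1.97%, that of Plod1 15.6 ± 1.28% against 14.7 ± 1.11%.

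**Figure D4:**
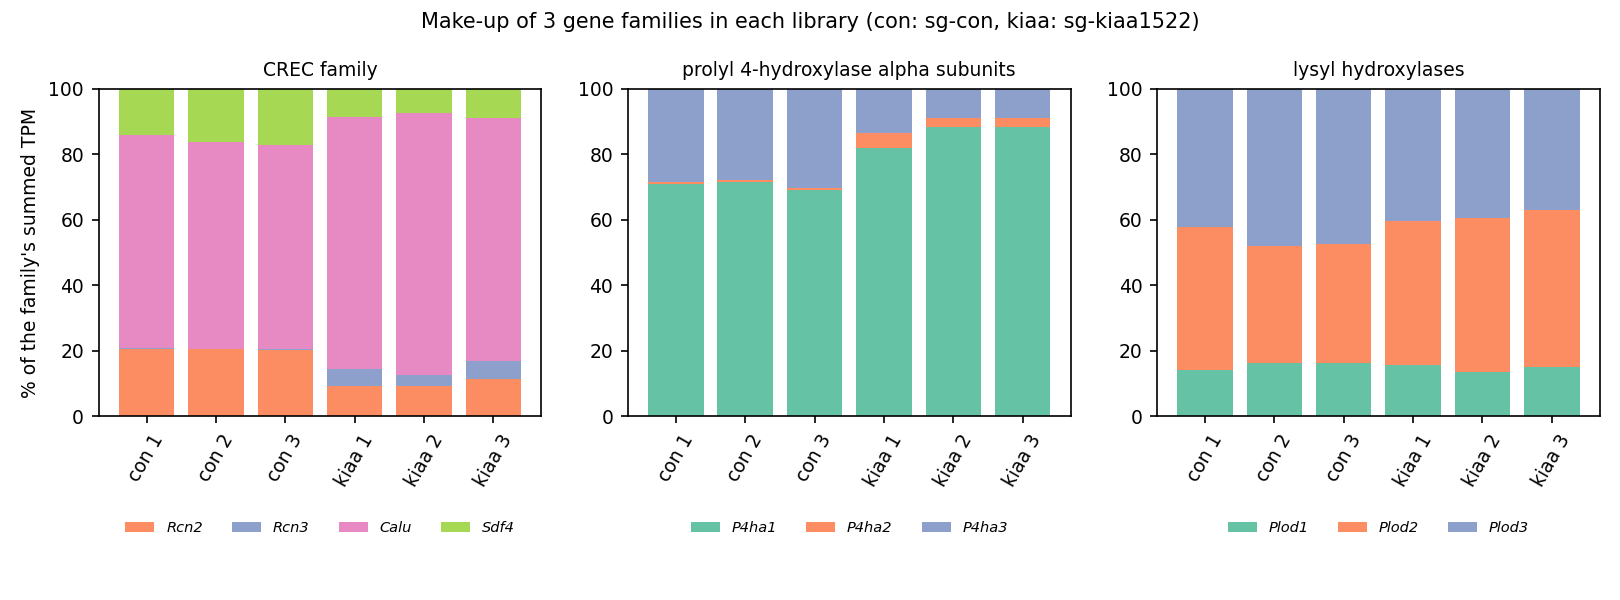
Share of each gene in the summed TPM of its family, in percent, for each of the 6 libraries (con for sg-con, kiaa for sg-kiaa1522, then the replicate number), in the CREC family, the prolyl 4-hydroxylase alpha subunits and the lysyl hydroxylases. Calu widens from 63.7% to 77.0% of the CREC level on average, and P4ha3 narrows from 28.9% to 10.3% of the alpha subunits.

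Other genes of collagen biosynthesis were taken from 7 lists of 51 genes, 31 of them tested. By the study's threshold 2 were called higher and 4 lower, against 2.74% and 4.34% of all tested genes. By the adjusted p alone 9 were called higher, 13 lower and 9 neither in the same edgeR test as above, against 26.3% of all tested genes in each direction. Their median log2 fold change was -0.11, beside -0.0067 for all tested genes.

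Among the 3 partner and related hydroxylases 2 were called lower and 0 higher. P4hb, the shared beta subunit that holds prolyl 4-hydroxylases in the ER and also acts as protein disulfide isomerase, fell by 0.36 on the log2 scale (SE 0.0565, adjusted p = 0.0016 by edgeR). P4ha3 fell by 1.88 (SE 0.142, adjusted p = 8.2e-05 by edgeR), from 44.5 ± 2.00 to 12.2 ± 2.44 CPM, in contrast to P4ha2, which was higher, and P4ha1, whose groups overlap. Plod3, the third lysyl hydroxylase, had a log2 fold change of -0.12 (SE 0.0873, adjusted p = 0.29 by edgeR). In the prolyl 3-hydroxylase list, 4 of 6 genes were tested, with 1 higher and 2 lower. Crtap, the cartilage-associated protein of the 3-hydroxylase complex, fell by 0.93 (adjusted p = 0.00091 by edgeR) and P3h4 fell by 0.90 (adjusted p = 0.0031 by edgeR). P3h1, the enzyme itself, rose by 0.34 (adjusted p = 0.029 by edgeR), a call lost when any of 5 libraries was left out (replicates 1 and 3 of sg-con and each of those labelled sg-kiaa1522), with adjusted p up to 0.094. Colgalt1, a collagen galactosyltransferase that acts on hydroxylysine, was the 1 tested gene of its list and fell by 0.26 (adjusted p = 0.0054 by edgeR).

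ER immunophilins, prolyl isomerases of collagen folding, were listed together with the ER channel gene Tmem38b, and this list held the largest rise among the tested collagen genes. Fkbp10, also called FKBP65, which works beside HSP47 in the folding of type I procollagen, had 30, 27 and 36 counts in the sg-con libraries and 168, 196 and 194 in those labelled sg-kiaa1522. It rose by 2.75 on the log2 scale (SE 0.189, adjusted p = 6e-05 by edgeR), and like Rcn3 it passed the filter only through the latter libraries. With no filter on counts the change of Fkbp10 was 2.75 as well (adjusted p = 7.1e-07 by edgeR). Of the 6 tested genes of the list, 3 were called higher and 1 lower. Fkbp14 fell by 0.46 (adjusted p = 0.0033 by edgeR) and Fkbp11 rose by 0.42 (adjusted p = 0.037 by edgeR, 0.071 once replicate numbers entered as a block, and from 0.052 to 0.11 without replicate 2 of sg-con or any of the libraries labelled sg-kiaa1522). Of the 5 genes of the procollagen export list, Creb3l1 and Mia2 were not tested. Creb3l1 had 22, 12 and 27 counts in the sg-con libraries and 1, 2 and 3 in those labelled sg-kiaa1522. Mia2 had 0 counts in each of the former and 3, 9 and 5 in the latter. The other 3 genes were tested and all 3 rose, where 26.3% of all tested genes were called higher by the adjusted p. These are the COPII coat genes Sec23a, by 0.65 (adjusted p = 0.0036 by edgeR), and Sec24d, by 0.25 (adjusted p = 0.018 by edgeR, 0.066 with the block and up to 0.070 without replicate 2 or 3 of either group), and Mia3, the TANGO1 gene that loads procollagen at ER exit sites, by 0.26 (adjusted p = 0.010 by edgeR).

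Among the substrates and the extracellular enzymes more genes were called lower than higher. Of the 16 collagen chain genes 6 were tested, with 1 higher and 3 lower. Col1a2, of type I collagen, fell by 1.46 (adjusted p = 1.5e-05 by edgeR) and Col5a1, of type V collagen, fell by 1.57 (adjusted p = 4.8e-05 by edgeR), while Col4a5, of basement membrane collagen, rose by 1.09 (adjusted p = 0.00051 by edgeR). Of the 13 genes for extracellular processing and cross-linking 8 were tested, with 1 higher and 4 lower. Pcolce, an enhancer of procollagen cleavage, fell by 1.01 (adjusted p = 0.00041 by edgeR), and by 0.94 to 0.98, short of the study's threshold, without replicate 2 or 3 of sg-con or replicate 3 of the libraries labelled sg-kiaa1522. Bmp1, a procollagen C-proteinase, fell by 0.76 (adjusted p = 0.00033 by edgeR) and Loxl2, a lysyl oxidase, fell by 0.72 (adjusted p = 0.00027 by edgeR). Col1a2 also makes up most of the summed fibroblast markers given above.

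**Figure D5:**
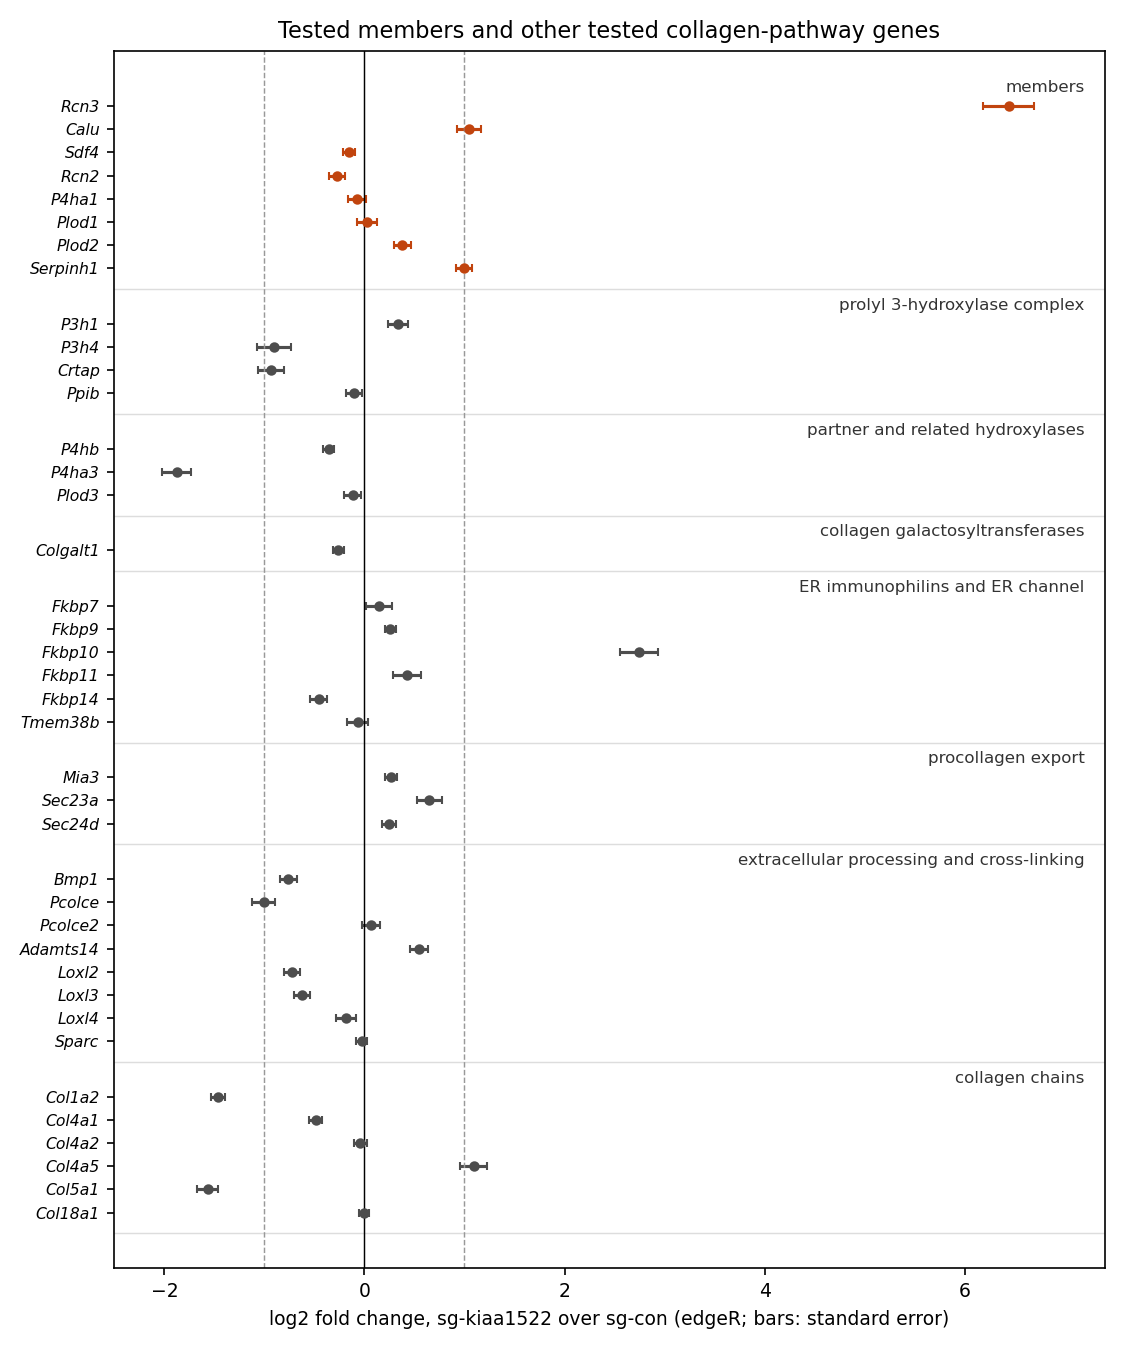
Log2 fold change of the libraries labelled sg-kiaa1522 over the sg-con libraries for the 8 tested members (orange) and the 31 other tested genes of the 7 collagen lists (grey), with bars of 1 standard error and dashed lines at the study's threshold of 1 in either direction. Rcn3 (6.44) and Fkbp10 (2.75) stand far to the right, and P4ha3 (-1.88), Col5a1 (-1.57) and Col1a2 (-1.46) farthest to the left.

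Lists tied to the members by calcium or oxygen were read in the same way. All 8 genes of other calcium-binding proteins of the ER and Golgi lumen were tested, with 6 called higher and 2 lower by the adjusted p, against 26.3% of all tested genes in each direction, and a median log2 fold change of 0.30. Hspa5, the ER chaperone BiP, rose by 0.85 (adjusted p = 0.017 by edgeR), Calr, calreticulin, by 0.62 (adjusted p = 0.00022 by edgeR) and Hsp90b1, the chaperone GRP94, by 0.50 (adjusted p = 0.00061 by edgeR). The Hspa5 call was lost without replicate 2 of sg-con (adjusted p = 0.053 by edgeR) and without replicate 1 or replicate 3 of the libraries labelled sg-kiaa1522 (adjusted p = 0.056 by edgeR in each case). Of the 12 hypoxia response genes 7 were tested, with 1 called higher and 3 lower, and a median of -0.11. Among these calls, that of Bnip3 (lower, adjusted p = 0.027 by edgeR) was lost with the replicate block (adjusted p = 0.098 by edgeR). Pdk1, a kinase that restrains pyruvate oxidation, fell by 0.98 (adjusted p = 0.00015 by edgeR), Ldha, lactate dehydrogenase, fell by 0.56 (adjusted p = 0.0014 by edgeR) and Vegfa, the vascular growth factor, rose by 0.35 (adjusted p = 0.0046 by edgeR).

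Genes beside Rcn3 and Calu, the 2 tested members with the largest differences, were read by rule. Nosip, on one side of Rcn3, fell by 0.45 (adjusted p = 0.030 by edgeR), in the opposite direction to Rcn3. That call was lost with the block (adjusted p = 0.067 by edgeR) and without any single library other than replicate 1 of sg-con (adjusted p up to 0.10). Fcgrt, on the other side, had a log2 fold change of 0.0002 (SE 0.108, adjusted p = 1.0 by edgeR). Beside Calu, Ccdc136 rose by 0.56 (adjusted p = 0.019 by edgeR), a call lost without replicate 2 of sg-con (0.054) or replicate 3 of the libraries labelled sg-kiaa1522 (0.058), and Fam71f1 was not tested, with 65, 64 and 66 counts against 38, 36 and 43. The neighbors of the other members were looked at after their values were seen. Scaper (-0.57, adjusted p = 0.0026 by edgeR) and Pstpip1 (-0.45, adjusted p = 0.048 by edgeR) beside Rcn2, Pdlim4 (0.66, adjusted p = 0.019 by edgeR) beside P4ha2 and Plscr4 (0.69, adjusted p = 0.00072 by edgeR) beside Plod2 had the sign of the member. Map6 beside Serpinh1 had the opposite sign (-2.34, adjusted p = 2.1e-05 by edgeR), and so did the untested Gdpd5, with 45, 75 and 77 counts against 2, 7 and 9. The Pstpip1 call was lost with the block (adjusted p = 0.11 by edgeR), with DESeq2 (0.090), with no filter (0.058) and without replicate 2 or 3 of either group, and the Pdlim4 call with the block (adjusted p = 0.054 by edgeR) and without replicate 2 of sg-con or replicate 1 of the libraries labelled sg-kiaa1522. The other 5 tested neighbors, beside P4ha1, Plod1 and Plod2, did not pass the test.

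Reads of overlapping genes may be shared, since the strand setting of the counting is not given in the sources used here. Rcn3 shares 290 exon bases, 16.9% of its exon length, with the antisense gene Gm45669, which is not among the counted genes, so reads from either could have been counted as Rcn3. Calu shares 397 bases (8.51%) with Opn1sw on the opposite strand, which had at most 4 counts in a library against at least 6318 for Calu. Plod2 shares 346 bases (6.42%) with Gm38391 on the opposite strand, which had 38, 38 and 46 counts in the sg-con libraries and 9, 16 and 15 in those labelled sg-kiaa1522, the reverse of the direction of Plod2. No exon of the other members overlaps an exon of another gene in the annotation.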

How the data were processed

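RNA of 889 cells was sequenced in 3 sg-con and 3 sg-kiaa1522 libraries, grouped by the labels. Adaptors and rRNA reads had been removed with Seqtk, reads mapped to GRCm38 with HISAT2 2.0.4, and uniquely mapped fragments counted per Ensembl gene with StringTie 1.3.0, and the authors deposited these whole-number counts without normalization. The annotation release and strand setting behind them are not given in the sources used here. Positions and exon lengths came from GENCODE M21, which matched 34267 of 34745 gene identifiers.

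Genes with more than 500 counts over all libraries, the study's filter, were tested with the quasi-likelihood test of edgeR 4.0.16 (R 4.3.3) under TMM scaling, with no covariate and Benjamini-Hochberg adjustment over 10046 genes. These held between 99.5% and 99.6% of a library's counts, and TMM factors were between 0.989 and 1.01. CPM used the tested counts times the TMM factor. TPM used the summed exon length and no TMM factor. The SE given with a fitted change is its absolute log2 fold change divided by the square root of the F statistic of that test. The biological coefficient of variation was 0.127. Promoters were those of RefSeq on GRCm38.p6.

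The members and lists were chosen with earlier results of these data known, so members get no p of their own, their calls are counted as a description, and the p-values of listed genes are not independent of that choice. Named genes were all members, C77080, up to 3 genes past an adjusted p of 0.05 with the largest changes in each collagen, calcium or hypoxia list, any gene of these past the threshold of the study's methods, the nearest counted genes beside Rcn3 and Calu, and genes whose exons overlap a member. Creb3l1, Mia2 and Bnip3 were named after their values were seen. Alternatives were edgeR's likelihood ratio test, DESeq2 1.42.0, RLE factors, library size alone, no filter, filterByExpr, a log2 threshold of 2 (which the study used in its plot of called genes), the replicate block, each library left out, the chromosome median removed and mean transcript length for TPM. Within a group, libraries differed by a chi-square per degree of freedom of at least 12.3, so none repeats another.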

Additional observations from a re-analysis of the deposited data

How the results depend on the processing

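No alternative run changed the sign of Rcn2, Rcn3, Calu, Sdf4, P4ha2, Plod2 or Serpinh1. With the chromosome median removed, the log2 fold change of Sdf4 was -0.24 and that of P4ha1 was 0.12, since the median was 0.078 on chromosome 4 and -0.19 on chromosome 10. Leaving out each library gave between 6.35 and 6.59 for Rcn3, 0.94 and 1.15 for Calu, 0.92 and 1.04 for Serpinh1, 2.53 and 2.79 for P4ha2, 0.33 and 0.46 for Plod2, and -0.33 and -0.21 for Rcn2. Those of P4ha1 ran from -0.16 to 0.01 and those of Plod1 from -0.06 to 0.07, on both sides of 0.

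By the study's threshold, filterByExpr, which also tests P4ha2 and puts Serpinh1 just past the threshold, called 4 members higher, and a threshold of 2 called 1. For all genes the higher and lower calls were 767 and 941 with no filter, 607 and 812 with filterByExpr, and 64 and 47 at a threshold of 2. For the other collagen genes they were 6 higher and 7 lower with no filter, 4 higher and 6 lower with filterByExpr, and 1 higher and 0 lower at a threshold of 2. Leaving out 1 library gave between 1 and 2 higher, 1 without sg-con replicate 3, where Col4a5 was at 0.99, and 1 without any library labelled sg-kiaa1522, where Fkbp10 no longer passed the filter, and between 3 and 5 lower, 3 where Pcolce fell short of the threshold, and 3 with the replicate block. By the adjusted p alone, between 5 and 8 were higher, 5 without replicate 2 or 3 of those labelled sg-kiaa1522.

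With the replicate numbers as a block, 0 members were called lower by the adjusted p, with the Rcn2 call lost, and between 0 and 2 when 1 library was left out, 0 without replicate 1 or 3 of those labelled sg-kiaa1522 and 2 without sg-con replicate 1. Whether libraries with the same number belong together is not given in the sources used here. Deviations from the group means correlated at -0.21, -0.051 and -0.17 for same-numbered libraries, and at 0.071 on average for differently numbered ones. With group means of 3 libraries, these values cannot settle it. C77080 kept an adjusted p of 0.0022 with the block in edgeR.

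Fcgrt, near 0, changed sign with the likelihood ratio test (-0.0005), library size alone (-0.01) and when libraries were left out (-0.09 to 0.06). The mean transcript length was also applied to the shares and to the libraries labelled sg-kiaa1522. With it the sg-con TPM was 347 for Calu, 94.4 for Rcn2, 101 for Sdf4, 61.4 for P4ha1, 1.41 for P4ha2, 30.9 for Plod1, 51.2 for Plod2 and 52.0 for Serpinh1, which moved Sdf4 and Rcn2 above P4ha1. Depth limits Rcn3 in the sg-con libraries, at 3 to 4 counts each, and Rcn1, at 0.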
